A study of Mus musculus with 12 samples.

Results

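The 10 genes Cd80, Cd86, Icosl, Cd40, Cd83, Cd274, Pdcd1lg2, Havcr2, Sirpa and Cd47 encode surface molecules through which macrophages stimulate or restrain T cells and each other. They were chosen by gene symbol from 54532 genes in tables of RNA-seq read counts and of FPKM, the number of reads per length of transcript and per depth of library. Each symbol had 1 row, and 9 of the 10 genes passed the filter on low counts. The cells were bone marrow-derived macrophages of wild-type C57BL/6J mice aged 2 to 3 months, cultured with the growth factor CSF-1 at 12 ng/ml for 24 h and 120 ng/ml for a further 48 h. They were plated on uncoated dishes or on dishes coated with fibronectin at 10 µg/ml, a matrix protein to which the integrin ITGA5 binds. All macrophages were then incubated for 24 h with an antibody at 10 µg/ml, which was either isotype-matched IgG or a neutralizing anti-ITGA5 antibody. The 4 groups, IgG and anti-ITGA5 each without and with fibronectin, had 3 libraries in each. All groups had the same genotype and the same medium with 15% serum, and every library had received an antibody. The study describes the libraries of a group as separate, biologically independent experiments. The labels do not say whether they came from separate mice, and p-values measure the spread between these libraries.

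Activation of T cells requires a costimulatory signal besides the antigen. CD80 and CD86 give it through CD28 and withdraw it through CTLA-4, and ICOS ligand acts on ICOS. CD40 is the receptor through which T cells stimulate the antigen-presenting cell in return, and CD83 is a surface protein of mature antigen-presenting cells that opposes degradation of CD86. PD-L1 (Cd274) and PD-L2 (Pdcd1lg2) are the ligands of the inhibitory receptor PD-1. TIM-3 (Havcr2) is an inhibitory receptor of T cells and myeloid cells. SIRPα (Sirpa) restrains phagocytosis when it binds CD47 on the target cell.

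In both comparisons of anti-ITGA5 with IgG, Havcr2 was higher and Cd274 was lower upon ITGA5 neutralization, although with fibronectin the Cd274 libraries overlapped and its call was lost in 9 of 16 alternatives, whereas the other PD-1 ligand, Pdcd1lg2, was close to undetected in all 4 groups. The promoter windows of these 3 genes are therefore shown. Windows were taken from RefSeq on the build GRCm38.p6, from 250 bases before to 50 bases after the annotated start, and 6 of the 10 genes had one. The sequences run 5′ to 3′ on the + strand, and capitals mark every match to 6 searched motifs: AP-1 (TGANTCA), STAT (TTCNNNGAA), IRF (GAAA, any 2 bases, GAAA), PU.1 (GAGGAA), the hypoxia response element core (ACGTG) and NF-kB (GGG, any 5 bases, CC). The Havcr2 window is chr11:46454681-46454980, the Cd274 window is chr19:29367188-29367487 and the Pdcd1lg2 window is chr19:29410669-29410968.
Havcr2: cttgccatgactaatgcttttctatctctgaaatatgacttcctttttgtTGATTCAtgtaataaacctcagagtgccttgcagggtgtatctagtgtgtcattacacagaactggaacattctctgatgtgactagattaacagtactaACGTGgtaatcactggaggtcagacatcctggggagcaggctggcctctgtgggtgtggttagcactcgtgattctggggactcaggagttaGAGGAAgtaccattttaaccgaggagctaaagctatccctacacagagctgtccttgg
Cd274: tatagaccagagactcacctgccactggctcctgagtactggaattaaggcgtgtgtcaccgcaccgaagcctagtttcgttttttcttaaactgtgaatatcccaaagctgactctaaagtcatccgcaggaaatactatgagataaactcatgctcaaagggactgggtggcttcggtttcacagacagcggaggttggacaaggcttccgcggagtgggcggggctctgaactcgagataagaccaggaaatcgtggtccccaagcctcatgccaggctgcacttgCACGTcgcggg
Pdcd1lg2: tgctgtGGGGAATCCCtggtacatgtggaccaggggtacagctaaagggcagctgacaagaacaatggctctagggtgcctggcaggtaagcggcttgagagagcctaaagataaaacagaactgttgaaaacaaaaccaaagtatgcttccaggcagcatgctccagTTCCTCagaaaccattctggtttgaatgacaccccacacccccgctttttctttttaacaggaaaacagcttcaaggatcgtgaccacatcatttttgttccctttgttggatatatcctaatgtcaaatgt

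With the annotated start counted as 0, the Havcr2 window held an AP-1 match at -200 to -194, a hypoxia response element core at -100 to -96 and a PU.1 match at -8 to -3. The Cd274 window held the hypoxia core alone, read on the other strand at 39 to 43. The Pdcd1lg2 window held an NF-kB match at -244 to -235, which matches on both strands, and a PU.1 match at -82 to -77. These motifs are short. Both strands were searched, and of 32851 mouse windows of the same length 7.81% held the AP-1 letters, 28.3% the PU.1 letters, 19.6% the hypoxia core, 50.8% the NF-kB letters, 8.3% the STAT letters and 3.44% the IRF letters. No STAT or IRF match was found in the 3 windows, which says only that these letters are not there. The windows also differed in base composition, with 15 CpG dinucleotides and a GC content of 52.7% at Cd274 against 3 CpG at both Havcr2 (45.3% GC) and Pdcd1lg2 (46.0% GC). No factor binding was measured.

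The libraries held 12954342 to 22075432 counted reads, with the lowest total in anti-ITGA5 without fibronectin replicate 2. The libraries of that group were also the least alike, with a chi-square of the counts per gene of 11.4 to 25.6 between them against 2.79 to 8.13 within the other 3 groups, and the 2 highest values involved replicate 2 (15.1 and 25.6). Without this library, 1842 of all genes were lower and 1992 higher in anti-ITGA5 without fibronectin (edgeR), against 1265 and 1419 with it. Havcr2 (log2 fold change 0.65) and Cd274 (-0.49) were called without it too, and the changed calls of Cd86, Sirpa and Cd47 are given with these genes. All 7 macrophage markers (Csf1r, Adgre1, Cd68, Itgam, Mertk, Fcgr1 and Lyz2) were expressed, and 4 of them (Lyz2, Mertk, Itgam and Cd68) were lower in anti-ITGA5 than in IgG on both coatings. Their summed FPKM was 8880 to 9715 in IgG and 5991 to 7374 in anti-ITGA5 without fibronectin, and 9451 to 9656 against 7229 to 7368 with fibronectin. Their part in the results below was not tested. All 10 dendritic cell markers, all 7 fibroblast markers and all 5 erythroid markers had a median under 1 FPKM. Of 5 B cell markers (Cd79a, Cd79b, Ms4a1, Pax5 and Ebf1), Cd79b alone had a higher median (2.71 FPKM). The summed B cell markers were 3.08 to 4.58 FPKM in IgG and 2.15 to 2.72 in anti-ITGA5 without fibronectin, and 3.44 to 4.59 against 1.99 to 2.81 with fibronectin, so that the groups did not overlap, and Ms4a1, Pax5 and Ebf1 had at most 2 reads in any library. Of 7 neutrophil markers, S100a8 alone had a median over 1 FPKM (2.27 FPKM) and Ly6g had 0 reads in all libraries. The summed neutrophil markers were 2.37 to 4.04 FPKM in IgG and 2.63 to 3.56 in anti-ITGA5 without fibronectin, and 3.04 to 4.44 against 1.82 to 3.00 with fibronectin. With fibronectin Cd79b was lower in anti-ITGA5 (log2 fold change -0.72, edgeR adjusted p = 0.0118) as was Mpo (-0.94, adjusted p = 0.0499), a neutrophil granule enzyme. The part of these markers in the results was not tested. Itga5, the target of the antibody, averaged 46.1 ± 2.57 FPKM (SD, n = 3) in IgG and 51.0 ± 1.94 in anti-ITGA5 without fibronectin, and 46.9 ± 1.88 and 49.4 ± 2.49 with fibronectin. It was called in none of the 5 comparisons (edgeR adjusted p = 0.0906 and 0.273 for the antibody). The antibody acts on the protein, so this level does not check the labels.

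Levels of the 10 genes spanned from near 0 to over 300 FPKM. Sirpa was the most abundant at a median of 331 FPKM over the 12 libraries, above 99.8% of all rows. Havcr2 (27.4 FPKM) and Cd47 (23.9 FPKM) followed. Cd40 (9.16 FPKM), Cd274 (8.38 FPKM), Icosl (5.40 FPKM) and Cd83 (4.34 FPKM) were at intermediate levels. Cd80 (2.43 FPKM) and Cd86 (1.77 FPKM) were low, and Pdcd1lg2 (0.0357 FPKM) was lowest. These medians pool both antibodies, and 2 neighbouring orders turned in IgG, where Havcr2 averaged 22.5 and 23.3 FPKM without and with fibronectin beside 23.7 and 24.1 FPKM of Cd47, and Cd274 averaged 9.51 and 11.2 FPKM beside 9.16 and 9.45 FPKM of Cd40. The macrophages therefore carried far more transcript for the inhibitory receptors Sirpa and Havcr2 than for the costimulatory ligands Cd80 and Cd86.

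**Figure D1:**
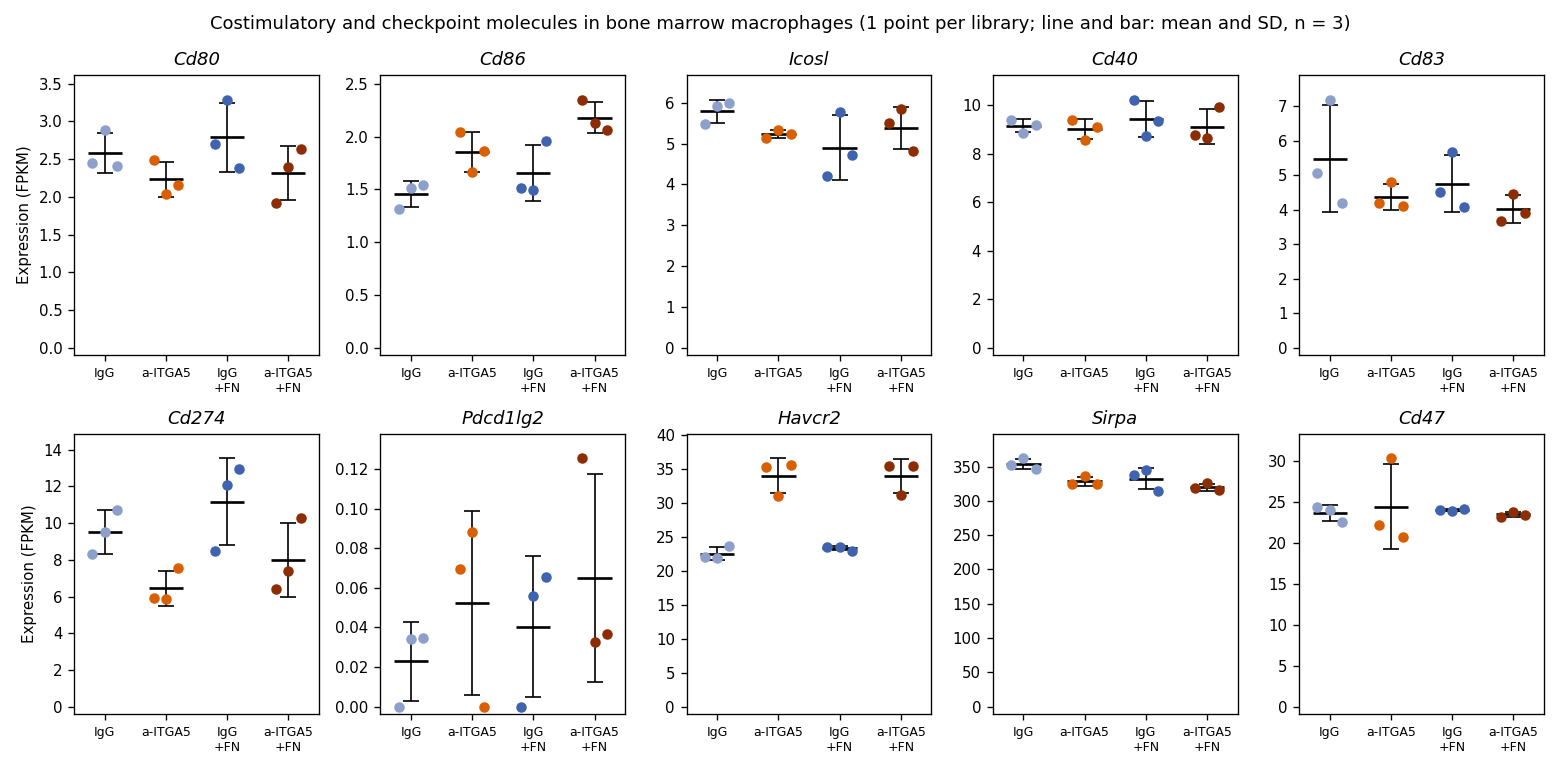
Expression of the 10 genes in FPKM (vertical axes, each including 0) by group (a-ITGA5, anti-ITGA5, +FN, with fibronectin), with 1 point per library and the mean and SD of the 3 libraries as line and bar. Havcr2 sits between 31.0 and 35.6 FPKM in the 6 anti-ITGA5 libraries and between 21.9 and 23.7 FPKM in the 6 IgG libraries, and 1 library of anti-ITGA5 without fibronectin stands apart for Cd47 at 30.4 FPKM.

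The first question was what neutralization of ITGA5 does to each gene, without and with fibronectin. Tests were edgeR quasi-likelihood tests on the counts, with p adjusted by Benjamini-Hochberg over all genes and a gene called at an adjusted p of 0.05 or less. Fold changes are log2 of anti-ITGA5 over IgG. Without fibronectin, Havcr2 was called higher and Cd274 lower, which is 2 of the 9 genes tested beside 20.8% of all 12924 genes. With fibronectin, Havcr2 and Cd86 were called higher and Cd274 lower, which is 3 of 9 beside 27.6% of 12916 genes. Both shares are close to those of all genes, so the number of calls is no result about these genes in particular. The median log2 fold change of the 9 genes was -0.10 without fibronectin and -0.05 with fibronectin, against 0.0090 and -0.0038 over all genes. In these bulk libraries, a change in the number of cells that carry a transcript cannot be told apart from a change per cell.

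The ligands of CD28 came first. Cd86 (chromosome 16, 36603869 to 36666081, - strand) measured 1.31, 1.51 and 1.54 FPKM in IgG and 2.04, 1.67 and 1.86 FPKM in anti-ITGA5 without fibronectin. The groups did not overlap. The log2 fold change was 0.36 (SE 0.138), which missed the threshold (edgeR adjusted p = 0.0930). With fibronectin, Cd86 measured 1.51, 1.49 and 1.96 FPKM in IgG and 2.35, 2.13 and 2.06 FPKM in anti-ITGA5. All anti-ITGA5 libraries were again the higher ones, although IgG replicate 3 came close. The log2 fold change was 0.40 (SE 0.138) and was called (edgeR adjusted p = 0.0467). Cd86 was thinly counted, at 83 to 167 reads per library, and its call lay near the threshold. That call was lost in 8 of 16 alternatives. It was lost in DESeq2 (adjusted p = 0.106), in limma on log2(FPKM + 1) (0.0773) or log2(FPKM + 0.1) (0.0745) and in limma without a filter (0.212). It was also lost without IgG with fibronectin replicate 1 (0.154) or 2 (0.157) or anti-ITGA5 with fibronectin replicate 1 (0.157) or 2 (0.0802). On uncoated dishes a call was gained without anti-ITGA5 without fibronectin replicate 2 (0.0462).

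Cd80 (chromosome 16, 38455561 to 38496335, + strand), which binds the same receptors as Cd86, did not rise with it. It measured 2.45, 2.89 and 2.40 FPKM in IgG and 2.49, 2.04 and 2.16 FPKM in anti-ITGA5 without fibronectin. With fibronectin the values were 2.70, 3.29 and 2.39 FPKM in IgG and 1.92, 2.39 and 2.63 FPKM in anti-ITGA5. The groups overlapped on both coatings. The log2 fold changes of -0.20 (95% interval -0.47 to 0.07) and -0.28 (-0.60 to 0.03) were not called (edgeR adjusted p = 0.275 and 0.171). The ratio of Cd80 to Cd86 in FPKM, taken within each library, was 1.78 ± 0.192 (SD, n = 3) in IgG and 1.20 ± 0.0376 in anti-ITGA5 without fibronectin, and these groups did not overlap (exact 2-sided permutation test, p = 0.10, the smallest that 3 against 3 libraries allow). With fibronectin the ratio was 1.73 ± 0.493 in IgG and 1.07 ± 0.233 in anti-ITGA5 with overlapping libraries (exact permutation p = 0.20). The ratio is built from the same Cd80 and Cd86 values and adds no evidence to their tests. Cd80 exceeded Cd86 in 11 of 12 libraries, and the exception, at a ratio of 0.817, was anti-ITGA5 with fibronectin replicate 1.

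Icosl (chromosome 10, 78069302 to 78083913, + strand), the ligand of ICOS, measured 5.47, 5.92 and 5.99 FPKM in IgG and 5.14, 5.33 and 5.24 FPKM in anti-ITGA5 without fibronectin. These groups did not overlap, but the log2 fold change of -0.14 (SE 0.0712) was not called (edgeR adjusted p = 0.193). With fibronectin it measured 4.21, 5.78 and 4.72 FPKM in IgG and 5.51, 5.84 and 4.83 FPKM in anti-ITGA5. The libraries overlapped there, and the log2 fold change of 0.13 (SE 0.111) pointed the other way and was not called (edgeR adjusted p = 0.405). The difference between the 2 fold changes was 0.27 (SE 0.142, 95% interval -0.03 to 0.57), which the interaction test did not call (edgeR unadjusted p = 0.0745).

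CD40 and CD83, the receptor and the surface protein of activated antigen-presenting cells, were not called. Cd40 (chromosome 2, 165055627 to 165072948, + strand) lay between 8.57 and 10.2 FPKM in all 12 libraries. Its group means of 9.16 ± 0.261 (IgG) and 9.03 ± 0.430 (anti-ITGA5) without fibronectin and 9.45 ± 0.755 and 9.13 ± 0.711 with fibronectin (SD, n = 3) differed by less than the spread within groups. The 95% interval of its log2 fold change was -0.16 to 0.13 without and -0.23 to 0.12 with fibronectin. Cd40 was thus the gene of the 9 for which the estimate lay nearest to 0 on uncoated dishes (-0.01, edgeR adjusted p = 0.905).

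Cd83 (chromosome 13, 43784775 to 43803132, + strand) measured 5.06, 7.19 and 4.19 FPKM in IgG and 4.21, 4.80 and 4.11 FPKM in anti-ITGA5 without fibronectin. With fibronectin it measured 4.52, 5.66 and 4.07 FPKM in IgG and 3.69, 4.47 and 3.90 FPKM in anti-ITGA5. Replicate 2 was the highest library in each of the 4 groups, and the IgG and anti-ITGA5 libraries overlapped. The log2 fold changes were -0.33 (SE 0.174, edgeR adjusted p = 0.219) and -0.25 (SE 0.130, adjusted p = 0.182). The estimates rested in part on IgG replicate 2, without which they were -0.08 (adjusted p = 0.734) and -0.10 (adjusted p = 0.608). Without fibronectin, Cd83 was called when every gene with a count was tested (adjusted p = 0.0351).

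Of the ligands of PD-1, Cd274 (chromosome 19, 29367455 to 29388095, + strand) was lower upon ITGA5 neutralization. It measured 8.31, 9.51 and 10.7 FPKM in IgG and 5.95, 5.87 and 7.56 FPKM in anti-ITGA5 without fibronectin. Every anti-ITGA5 library was below every IgG library. The log2 fold change was -0.55 (SE 0.115), a level 0.685 times that in IgG (edgeR adjusted p = 0.00742). With fibronectin it measured 8.46, 12.1 and 12.9 FPKM in IgG and 6.39, 7.39 and 10.3 FPKM in anti-ITGA5. The lowest IgG library was below the highest anti-ITGA5 library, so that these groups overlapped. The log2 fold change of -0.49 (SE 0.167), a level 0.713 times that in IgG, was called by a small margin (edgeR adjusted p = 0.0462).

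The 2 calls of Cd274 differed in how well they held. Without fibronectin the call was kept in 15 of 16 alternatives and lost in limma on log2(FPKM + 1) without a filter (adjusted p = 0.0968). With fibronectin it was lost in 9 of 16, including DESeq2 (adjusted p = 0.196) and limma (0.153), and without IgG with fibronectin replicate 2 (0.131) or 3 (0.166) or anti-ITGA5 with fibronectin replicate 1 (0.195) or 2 (0.132). Cd274 remained below IgG in the estimate of every alternative on both coatings. The interaction test did not call a difference between the fold changes on the 2 coatings (0.06, SE 0.245, 95% interval -0.46 to 0.58), although the interval reaches the size of the fold changes themselves.

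Pdcd1lg2 (chromosome 19, 29410919 to 29471157, + strand) begins 22824 bases after the end of Cd274 on the same strand. Its counts without fibronectin were 0, 1 and 1 in IgG and 2, 2 and 0 in anti-ITGA5. With fibronectin they were 0, 2 and 2 in IgG and 4, 1 and 1 in anti-ITGA5. With 0 to 4 reads per library the gene did not pass the filter and was not tested, and a change was not detectable at this depth. PD-L1 was therefore the only ligand of PD-1 with more than 4 reads in any library of these macrophages.

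Havcr2 (chromosome 11, 46454935 to 46481255, + strand), which encodes TIM-3, was higher upon ITGA5 neutralization on both coatings. It measured 22.1, 21.9 and 23.7 FPKM in IgG and 35.3, 31.0 and 35.6 FPKM in anti-ITGA5 without fibronectin. With fibronectin it measured 23.5, 23.5 and 23.0 FPKM in IgG and 35.5, 31.1 and 35.4 FPKM in anti-ITGA5. No anti-ITGA5 library overlapped an IgG library, and the lowest of the anti-ITGA5 libraries was replicate 2 on each coating. The log2 fold change was 0.60 (SE 0.0638, 1.51-fold, edgeR adjusted p = 0.000119) without and 0.54 (SE 0.0566, 1.46-fold, edgeR adjusted p = 2.6e-05) with fibronectin. Among all genes tested, Havcr2 ranked 203 and 216 by p. It was called in all 16 alternatives of each comparison, with log2 fold changes of 0.56 to 0.65 without and 0.51 to 0.60 with fibronectin. The difference between coatings was -0.06 (SE 0.0882, 95% interval -0.25 to 0.13) and was not called.

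Havcr2 exceeded Cd274 in every library, and more so in anti-ITGA5. The ratio of Havcr2 to Cd274 in FPKM was 2.39 ± 0.236 (SD, n = 3) in IgG and 5.31 ± 0.615 in anti-ITGA5 without fibronectin, and 2.17 ± 0.536 and 4.41 ± 1.06 with fibronectin. Groups did not overlap on either coating (exact 2-sided permutation test, p = 0.10 in both, the smallest possible). In log2 the ratio was higher by 1.15 and 1.02. This ratio is built from both called genes and adds no evidence to their tests.

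**Figure D2:**
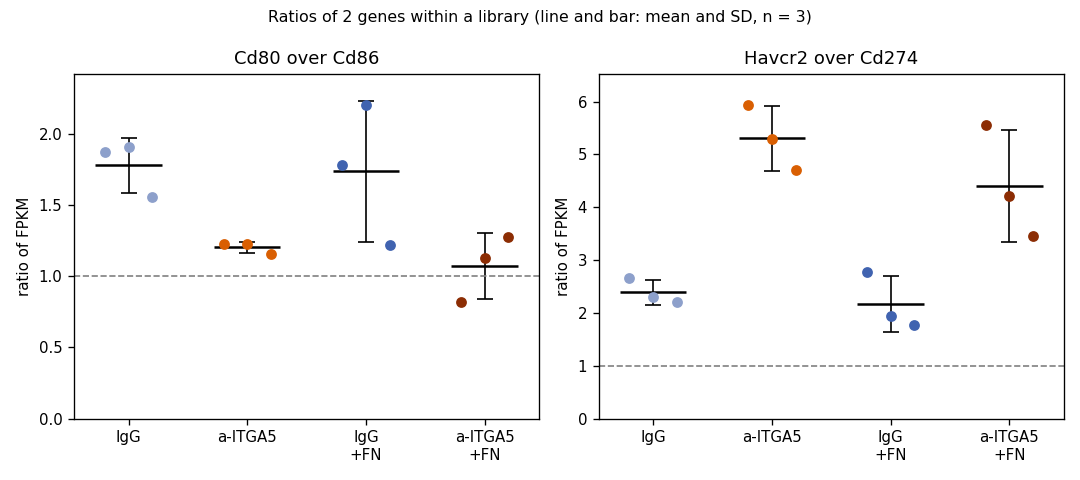
Ratios of FPKM within a library (vertical axes, from 0, dashed line at 1) for Cd80 over Cd86 and Havcr2 over Cd274 by group (a-ITGA5, anti-ITGA5, +FN, with fibronectin), with 1 point per library and the mean and SD of 3 libraries as line and bar. Havcr2 over Cd274 is at 2.78 or less in the IgG libraries and at 3.45 or more in the anti-ITGA5 libraries.

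The receptor and ligand that restrain phagocytosis were not called. Sirpa (chromosome 2, 129592835 to 129632228, + strand) measured 353, 362 and 346 FPKM in IgG and 324, 336 and 324 FPKM in anti-ITGA5 without fibronectin. These groups did not overlap, and the log2 fold change of -0.10 (SE 0.0484) was not called (edgeR adjusted p = 0.172). With fibronectin Sirpa measured 337, 345 and 315 FPKM in IgG and 318, 326 and 316 FPKM in anti-ITGA5, which overlapped (-0.06, SE 0.0407, adjusted p = 0.339). Reads of Sirpa may be shared with the Sirpb1 genes, which are related in sequence, and how the authors' counting split them could not be checked.

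Cd47 (chromosome 16, 49800533 to 49915010, + strand), the ligand of SIRPα, lay between 22.6 and 24.4 FPKM in the 6 IgG libraries and between 23.2 and 23.9 FPKM in anti-ITGA5 with fibronectin. In anti-ITGA5 without fibronectin it measured 22.3, 30.4 and 20.7 FPKM. Replicate 2, the library with the lowest total, thus held the highest Cd47 level of all 12, and the part of depth in this was not tested. The log2 fold change without fibronectin was 0.05 (SE 0.122, edgeR adjusted p = 0.809). Without that library it turned to -0.14 and was called (adjusted p = 0.0448), as was Sirpa (-0.13, adjusted p = 0.0162), so that 3 of the 9 genes were lower with Cd274. Cd86 was then called as well (0.42, adjusted p = 0.0462), so that 2 were higher with Havcr2. With fibronectin the 3 anti-ITGA5 libraries were below the 3 IgG libraries, by -0.04 (SE 0.0393) on the log2 scale, which was not called (adjusted p = 0.532). Over the 9 genes, IgG and anti-ITGA5 libraries did not overlap in FPKM for 5 genes without fibronectin (Cd86, Cd274, Havcr2, Icosl and Sirpa) and for 3 with fibronectin (Cd86, Havcr2 and Cd47), beside 38.2% and 42.4% of all genes tested.

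**Figure D3:**
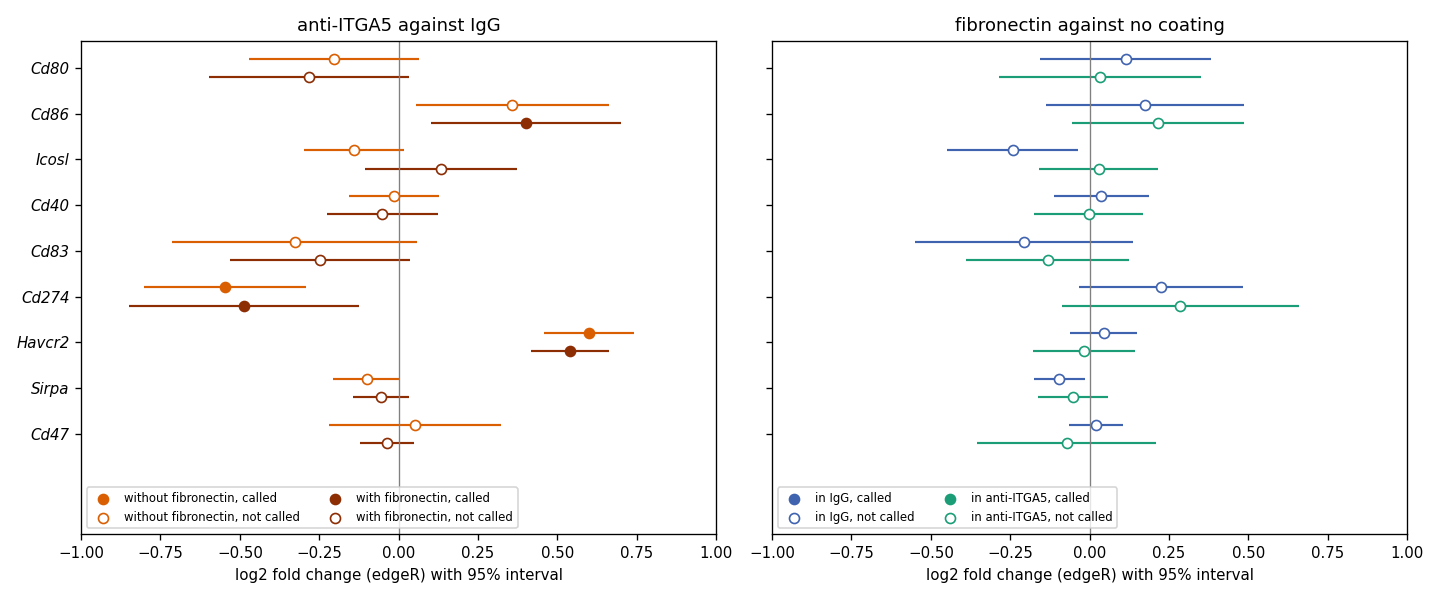
Log2 fold change of the 9 genes tested (horizontal axis) with its 95% interval from the edgeR fit, for anti-ITGA5 against IgG (left) and for fibronectin against no coating (right); filled points are called at an adjusted p of 0.05 or less. Havcr2 and Cd274 are called on both coatings at the left, Cd86 with fibronectin only, and no point is filled at the right.

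The second question was what the fibronectin coating does. None of the 9 genes was called for fibronectin against no coating, in IgG or in anti-ITGA5, beside 0.449% of 12925 genes (0.124% lower and 0.325% higher) and 0% of 12863 genes (edgeR). For the latter, 461 of all genes had an unadjusted p under 0.05 in edgeR, DESeq2 called 5 genes and limma called 0. DESeq2 and limma called none of the 9 in either comparison, although DESeq2 gave an adjusted p for only 2 of the 9 in IgG (Sirpa and Cd47). In IgG, Icosl (-0.24, unadjusted p = 0.0248, adjusted p = 0.418) and Sirpa (-0.09, unadjusted p = 0.0238, adjusted p = 0.413) were under an unadjusted p of 0.05 in edgeR, as were 2 genes in DESeq2 and 0 in limma. Sirpa was the only one of the 9 whose libraries did not overlap, with all fibronectin libraries below those without, beside 15.4% of all genes. Icosl was called without IgG with fibronectin replicate 2 (-0.38, adjusted p = 0.0497). With a replicate block in edgeR, Sirpa (-0.10, adjusted p = 0.0468) and Cd274 (0.22, adjusted p = 0.0351) were called in IgG. In anti-ITGA5, 0 of the 9 genes were under an unadjusted p of 0.05 in edgeR, DESeq2 or limma. Cd86 alone had libraries that did not overlap, higher with fibronectin (0.21, SE 0.121, adjusted p = 0.979), beside 9.74% of all genes.

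The log2 differences by coating were small for Havcr2, at 0.04 (95% interval -0.06 to 0.15) in IgG and -0.02 (-0.18 to 0.14) in anti-ITGA5. Cd274 had estimates above 0 in both, at 0.23 (-0.03 to 0.48) and 0.29 (-0.09 to 0.66). Neither passed in the test as reported, although the estimate in IgG passed with a replicate block. The interaction of antibody and coating was called for 0 of the 9 genes beside 0.0223% of 13455 genes (edgeR), and 0 of them had an unadjusted p under 0.05. DESeq2 and limma called 4 and 1 of all genes for the interaction. The comparisons without and with fibronectin use different libraries, whereas each antibody comparison shares libraries with both coating comparisons.

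The order of group means is given as a description, without a test and without the share of all genes that have the same order. For Havcr2 both anti-ITGA5 groups (34.0 ± 2.56 FPKM without and 34.0 ± 2.50 with fibronectin) were above both IgG groups (22.5 ± 1.01 and 23.3 ± 0.323 FPKM), and neighbours on the same antibody overlapped. For Cd274 the order was IgG with fibronectin (11.2 ± 2.37 FPKM), IgG without (9.51 ± 1.21), anti-ITGA5 with (8.01 ± 2.01) and anti-ITGA5 without (6.46 ± 0.955), and each neighbour overlapped the next. For Cd86 the order was anti-ITGA5 with fibronectin (2.18 ± 0.150 FPKM), anti-ITGA5 without (1.86 ± 0.187), IgG with (1.66 ± 0.263) and IgG without (1.46 ± 0.126), and only the first was clear of its neighbour. For Cd80, Cd40, Cd83 and Sirpa, which were called on neither coating, the means of both IgG groups were the higher ones, but IgG and anti-ITGA5 neighbours overlapped and the Cd40 means differed by less than the largest SD. Sirpa in IgG without fibronectin was clear of IgG with fibronectin. For Icosl the order was IgG without fibronectin (5.80 ± 0.280 FPKM), anti-ITGA5 with (5.39 ± 0.514), anti-ITGA5 without (5.24 ± 0.0919) and IgG with (4.90 ± 0.799). For Icosl and Cd47 all neighbours overlapped.

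**Figure D4:**
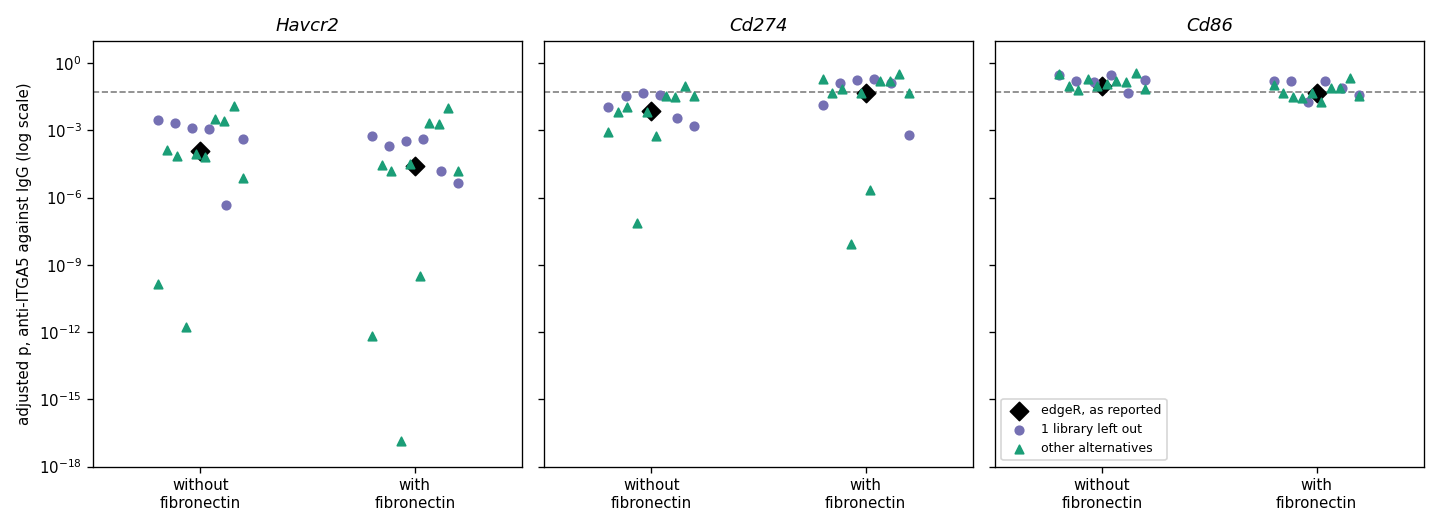
Adjusted p of Havcr2, Cd274 and Cd86 for anti-ITGA5 against IgG (vertical axis, log scale, dashed line at 0.05) without and with fibronectin, for the edgeR test as reported, with 1 library left out and in the other alternatives. All points of Havcr2 are below the line, whereas points of Cd274 and Cd86 lie on both sides of it on each coating.

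Over the 12 libraries, genes were ranked by Pearson correlation of log2 normalised counts with each called gene, among the 11686 genes that had 10 counts or more in all libraries. The libraries fall into antibody groups, so these values describe likeness of pattern only. Havcr2 was most like Sf3b3 (r = 0.988), Aars (0.981) and Ncl (0.980). Cd274 was most like Mmp14 (0.962), Gstp1 (0.952) and Slc7a11 (0.935). Cd86 was most like Derl2 (0.970), Faap24 (0.948) and Alad (0.945).

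The remaining genes of these pathways were read from lists of partners and relatives. Among other immunoglobulin superfamily ligands of T cells, 1 of 6 tested genes was lower and 0 higher without fibronectin, and 2 were lower and 0 higher with fibronectin. The gene lower on both was Vsir, which encodes the checkpoint molecule VISTA. Vsir measured 59.2, 59.3 and 59.5 FPKM in IgG and 37.2, 37.6 and 38.8 FPKM in anti-ITGA5 without fibronectin, and 64.5, 65.2 and 64.3 against 39.0, 37.7 and 39.8 FPKM with fibronectin. The groups stood far apart, with log2 fold changes of -0.64 (SE 0.0474, edgeR adjusted p = 1.5e-05) and -0.74 (SE 0.0385, adjusted p = 4.4e-07). Vsir lies within the annotated Cdh23 locus. Nectin2, a ligand of TIGIT and CD226, was lower with fibronectin (-0.58, SE 0.0990, adjusted p = 0.000937), and its estimate without fibronectin was -0.17 (adjusted p = 0.352).

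Among TNF superfamily costimulatory ligands, 0 of 3 tested genes were called without fibronectin (edgeR) and 1 of 4 was lower with fibronectin. That gene was Tnfsf4, the OX40 ligand, with 14, 13 and 19 reads in IgG and 4, 4 and 1 reads in anti-ITGA5 (log2 fold change -2.21, SE 0.494, edgeR adjusted p = 0.00529). Without fibronectin it held 6, 8 and 6 against 3, 1 and 4 reads and did not pass the filter. The numbers of reads were small in both.

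Both listed ubiquitin ligases of CD86 were lower in anti-ITGA5 on both coatings. They mark CD86 and MHC class II for degradation. March1 measured 3.03, 3.09 and 3.35 FPKM in IgG and 1.56, 1.65 and 1.71 FPKM in anti-ITGA5 without fibronectin, and 3.54, 3.73 and 3.55 against 1.89, 1.95 and 2.02 FPKM with fibronectin. The groups were clear of each other, with log2 fold changes of -0.94 (SE 0.0857, edgeR adjusted p = 4.7e-05) and -0.89 (SE 0.0754, adjusted p = 6.6e-06). March8 was lower by less (-0.23, adjusted p = 0.0123, and -0.15, adjusted p = 0.0280). Protein of CD86 was not measured in these data.

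Among 13 other inhibitory receptors of myeloid cells, 4 were lower and 3 higher on uncoated dishes, and on fibronectin 5 were lower and 3 higher. All 13 were tested. Lair1, a receptor for collagens, was higher on both coatings (0.66, SE 0.0617, and 0.57, SE 0.0426, edgeR adjusted p = 5.2e-05 and 2.7e-06). Its FPKM were 13.9 to 14.9 in IgG and 21.6 to 24.4 in anti-ITGA5 without fibronectin. Ceacam1, which can bind TIM-3, was lower on both (-0.70 and -0.52, adjusted p = 4.1e-05 and 4.6e-05), as was Cd33, a sialic acid-binding receptor (-0.64 and -0.58, adjusted p = 0.000962 and 0.00121). Inhibitory receptors therefore moved in both directions. Clec12a and Pilra were higher, and Pirb was lower, on both coatings.

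Havcr2 and its partners did not move as one. Of 3 tested genes among TIM family members and partners of TIM-3, 1 was lower and 1 higher without fibronectin, and 0 were lower and 1 higher with fibronectin. Lgals9, which encodes the TIM-3 ligand galectin-9, measured 55.4, 57.6 and 57.5 FPKM in IgG and 42.0, 37.2 and 47.0 FPKM in anti-ITGA5 without fibronectin (-0.43, SE 0.0731, edgeR adjusted p = 0.00236). With fibronectin it measured 63.7, 54.8 and 63.5 against 46.6, 43.4 and 66.6 FPKM, which overlapped through replicate 3 and was not called (-0.22, SE 0.124, adjusted p = 0.212). Hmgb1, a nuclear protein that also binds TIM-3, was higher on both (0.42 and 0.34, adjusted p = 0.000293 and 0.00461), and its annotated locus overlaps 7 other genes.

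Among 15 genes known to regulate PD-L1, 4 were lower and 3 higher on uncoated dishes, and on fibronectin 3 were lower and 3 higher, with a median log2 fold change of -0.15 and -0.08. Stub1 (0.36 and 0.40, edgeR adjusted p = 0.0270 and 0.00420) and Spop (0.30 and 0.28, adjusted p = 0.00236 and 0.00144), which take part in ubiquitination of PD-L1, were higher on both. Ifngr1, a chain of the interferon-γ receptor, was lower on both (-0.23 and -0.26, adjusted p = 0.0235 and 0.00661). Cmtm6, which keeps PD-L1 at the cell surface, was lower with fibronectin (-0.15, adjusted p = 0.0156) and missed the threshold without (-0.15, adjusted p = 0.0515).

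Of 12 partners and relatives of SIRPα and CD47, 3 were lower and 1 higher on uncoated dishes, and on fibronectin 4 were lower and 2 higher. Thbs1, the CD47 ligand thrombospondin-1, was lower on both (-0.65 and -0.73, edgeR adjusted p = 0.0182 and 0.00296). Sirpb1c, a relative of Sirpa, was also lower on both (-0.72 and -0.62, adjusted p = 0.0150 and 0.0251). It held 45 to 147 reads per library, and these may likewise be shared with related genes. Fyb, an adaptor protein, was higher on both (0.22 and 0.20, adjusted p = 0.00862 and 0.00182). The phosphatases that bind SIRPα were not called, with log2 fold changes of 0.05 and 0.02 for Ptpn6 and -0.02 and -0.0071 for Ptpn11. Of 11 genes of CD40 and noncanonical NF-kB signaling, 1 was lower and 1 higher on uncoated dishes, and on fibronectin 1 was lower and 0 were higher. They were Traf6 (-0.19 and -0.17, adjusted p = 0.0357 and 0.0337) and, without fibronectin only in these calls, Traf3 (0.19, adjusted p = 0.0489, 0.04 with fibronectin, adjusted p = 0.650). No gene of any of these lists was called for fibronectin against no coating (edgeR). For comparison, 9.79% of all genes were lower and 11.0% higher on uncoated dishes, and on fibronectin 13.2% were lower and 14.4% higher. Nectin2, Ceacam1, Traf3, Thbs1, Fyb, Stub1, Spop, March1 and March8 also overlap other annotated genes, and without a stated strand setting the reads of overlapping genes cannot be told apart. None of the 10 costimulatory and checkpoint genes overlaps another annotated gene.

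**Figure D5:**
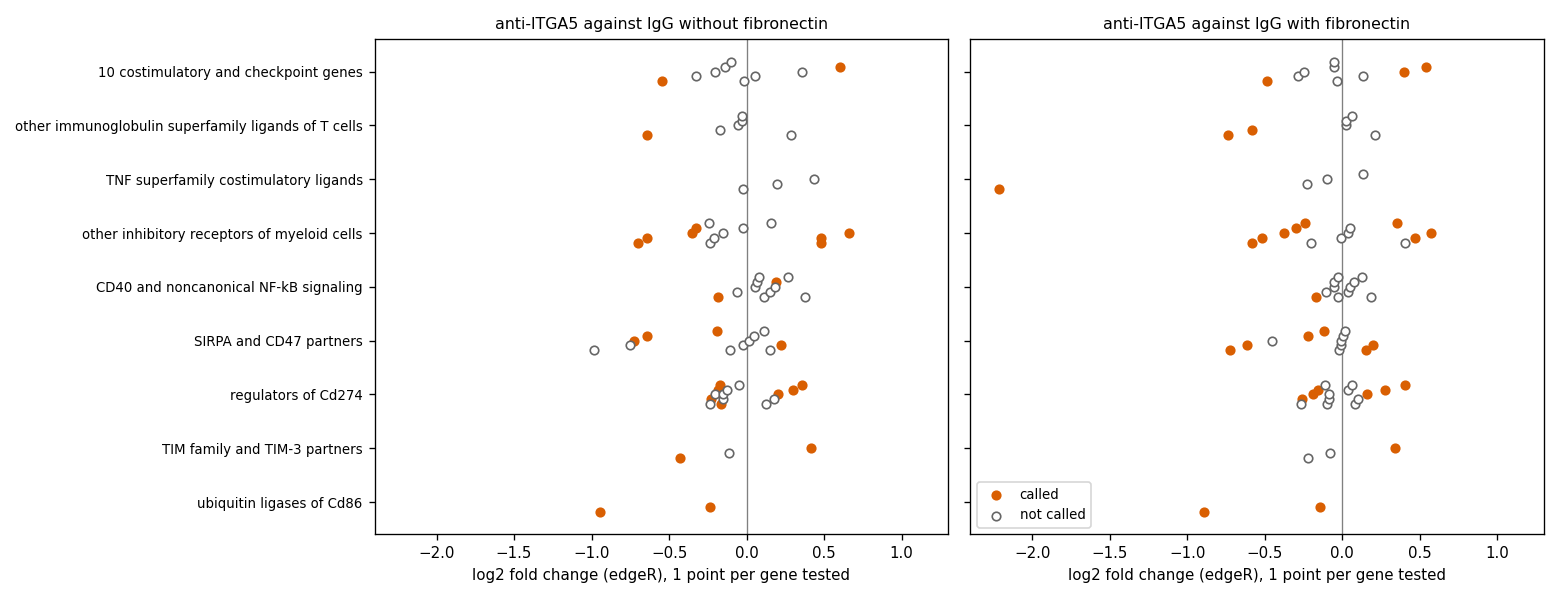
Log2 fold change of anti-ITGA5 over IgG (horizontal axes) without and with fibronectin for each gene tested in the 10 genes and in each list of partners and relatives; filled points are called at an adjusted p of 0.05 or less. Called genes lie on both sides of 0 in several lists, both ubiquitin ligases of CD86 lie below 0, and the point at the far left is Tnfsf4 at -2.21.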

How the data were processed

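RNA of mouse bone marrow-derived macrophages was measured in 12 libraries of 4 groups of antibody and coating. The authors mapped reads with TopHat2 2.0.9 to mm10 (GRCm38.p6, Ensembl annotation) and deposited HTSeq 0.6.1 read counts per gene. The deposited FPKM values, for which the submitters' processing notes name Cufflinks 2.1.1, equalled count over gene length over 1 constant per library. The strand setting and the annotation release are not given in the sources used here.

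The counts were tested with edgeR 4.0.16 (quasi-likelihood, TMM, filterByExpr with a minimum count of 10 and a minimum total count of 15) in R 4.3.3, on the 6 libraries compared, or on all 12 for the interaction, with Benjamini-Hochberg adjustment over all genes tested. SE is the log2 fold change over the square root of F, and intervals are 95%. The pipeline was tested on simulated data with planted log2 changes of 1. These are larger than the changes called among the 10 genes, so smaller changes were not covered. FPKM of single genes and ratios were compared by exact permutation tests (scipy 1.17.1), for which 3 against 3 cannot go below 0.10. Alternatives were DESeq2 1.42.0, its size factors, total counts, other filters on low counts, a replicate block, limma 3.58.1 on log2(FPKM + 1) or log2(FPKM + 0.1) at a mean of at least 0.5 FPKM or without a filter, 1 fit of all 12 libraries, and each library left out.

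The 10 genes and all lists were chosen with earlier results of these data known. From each list, the 3 called genes with the largest mean absolute log2 fold change over both antibody comparisons are named, and for each called member the 3 genes with the highest correlation. Tnfsf4, Clec12a, Pilra, Pirb, Cmtm6, Cops5, Myc, Cmtm4, Jak1, Ifngr2, Stat3, Ptpn6, Ptpn11, Cd28, Cd79b, S100a8 and Mpo were named after their values were seen. Of 12 listed immunoglobulin superfamily ligands, 11 were found in the tables. One gene in each of 2 marker lists is not reported here.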

Additional observations from a re-analysis of the deposited data

How the results depend on the processing

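Of the log2 fold changes of single genes, 688 values under alternatives kept their direction and side of the threshold, 18 lost a call, 6 gained one and 46 changed sign. The last include Cd47 without anti-ITGA5 without fibronectin replicate 2, which turned and also passed the threshold (-0.14, adjusted p = 0.0448). Havcr2, Cd274 and Cd86 kept their direction in both antibody comparisons under all alternatives run. The cause of each difference below was not tested. Depth limits Pdcd1lg2 most, then Cd86 and Cd80.

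For the antibody without fibronectin, 2 of the 9 genes were lower when every gene with a count was tested and 0 in limma on log2(FPKM + 1) without a filter, which called 536 of all genes lower and 684 higher. With 1 library left out, 1 to 3 of the 9 genes were lower and 1 to 2 higher, and 627 to 1842 of all genes were lower and 846 to 1992 higher, the highest of all 4 counts without anti-ITGA5 replicate 2. With fibronectin, 0 of the 9 genes were lower in DESeq2, with scaling by total counts and in the 3 limma fits, and 1 was higher in DESeq2 and the limma fits, of which the one without a filter called 846 of all genes lower and 1025 higher. With 1 library left out, 0 to 1 of the 9 genes were lower and 1 to 2 higher, and 1113 to 1907 of all genes were lower.

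For fibronectin in IgG, all genes lower and higher numbered 41 and 100 in DESeq2, 66 and 175 with every gene with a count, 2 and 5 in limma on log2(FPKM + 1), 0 and 5 on log2(FPKM + 0.1), 9 and 8 without a filter, 1 and 10 with all 12 libraries in 1 fit, and 3 to 24 and 6 to 77 with 1 library left out, when 0 to 1 of the 9 genes were lower. For fibronectin in anti-ITGA5 they numbered 2 and 3 in DESeq2, 214 and 113 with every gene with a count, 1 and 1 with all 12 libraries, and 0 to 4 in each direction with 1 library left out. For the interaction, 1 gene was higher in DESeq2, 32 were lower and 33 higher with every gene with a count, 1 was lower in limma with either pseudocount, 3 were higher in limma without a filter, and 1 to 4 were lower and 0 to 3 higher with 1 library left out.

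The replicate numbers were not taken to pair the libraries, since same-numbered libraries correlated at 0.00535 to 0.243 in their deviations and no comparison had all 3 pairs over 0.1. Every library correlated best with its own number in 3 of 4 comparisons, the exception being replicate 2 for fibronectin in anti-ITGA5 (0.00535 against 0.0668). With a replicate block, fibronectin in IgG gave 1 of the 9 genes lower (Sirpa, -0.10, adjusted p = 0.0468) and 1 higher (Cd274, 0.22, adjusted p = 0.0351), with 133 of all genes lower and 283 higher, and fibronectin in anti-ITGA5 gave 2 of all genes lower. The block changed no other call of the 9 genes.

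Scaling by total counts moved the median log2 fold change of all genes to 0.0490 without and 0.0368 with fibronectin and turned Cd40 without (0.025) and Cd47 with fibronectin (0.0045). For fibronectin in anti-ITGA5, Cd40 turned in DESeq2 (0.0078), with every gene with a count (0.017) and in limma (0.012, 0.013 and 0.012), as did Havcr2 with every gene with a count (0.0027) and in limma (0.00014 in each). With 1 library left out, signs turned within these ranges of log2 values: for the antibody, Cd40 from -0.040 to 0.013 and Cd47 from -0.14 to 0.16 without fibronectin, and Cd40 from -0.11 to 0.0057 with fibronectin. For fibronectin in IgG they were Cd80 from -0.023 to 0.21, Cd40 from -0.023 to 0.095, Cd83 from -0.36 to 0.041 and Cd47 from -0.0094 to 0.043. For fibronectin in anti-ITGA5 they were Cd80 from -0.069 to 0.16, Cd40 from -0.070 to 0.035, Havcr2 from -0.067 to 0.045, Icosl from -0.031 to 0.097 and Cd47 from -0.18 to 0.12. For the interaction they were Cd80 from -0.18 to 0.058, Cd86 from -0.034 to 0.17, Cd40 from -0.095 to 0.021, Cd83 from -0.17 to 0.24, Cd274 from -0.15 to 0.20, Havcr2 from -0.11 to 0.0070 and Cd47 from -0.19 to 0.10.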

Other observations

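The T cell list held 1 gene at a clear level. Cd28, the receptor of CD80 and CD86 on T cells, lay between 14.2 and 18.1 FPKM in the 12 libraries, at 1415 to 2067 reads. In the same libraries Cd3d, Cd3g, Ctla4 and Cd40lg held 0 reads, Pdcd1 held at most 1 read and Icos at most 5 reads, and the other 9 markers of the list all had a median under 1 FPKM. Cd28 measured 15.4, 14.9 and 14.2 FPKM in IgG and 17.4, 18.1 and 17.4 FPKM in anti-ITGA5 with fibronectin, which did not overlap (log2 fold change 0.25, SE 0.0468; edgeR adjusted p = 0.00193). Without fibronectin it measured 17.6, 16.1 and 14.6 against 17.8, 16.8 and 15.6 FPKM and was not called (0.06, adjusted p = 0.635), and the interaction was 0.18 (SE 0.0925, adjusted p = 0.9997). No annotated gene of the tables overlaps Cd28 (chromosome 1, 60716800 to 60773359, + strand).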
